A study of Mus musculus with 16 samples.

Results

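The 10 genes described here encode receptors for glutamate, the main excitatory transmitter of the cortex, and they were taken by symbol from the 30389 genes listed in the count tables. They are the 4 AMPA receptor subunits (Gria1, Gria2, Gria3 and Gria4), 3 NMDA receptor subunits (Grin1, Grin2a and Grin2b) and 3 metabotropic receptors (Grm3, Grm5 and Grm7), and all 10 had UMIs (unique molecular identifiers, one per captured RNA molecule). The data are Drop-seq libraries, a method that pairs each cell with a barcoded bead in a droplet and counts RNA 3′ ends, made from fresh dissociated neocortex of mice aged 17 months. Mice heterozygous for THY-Tau22, a transgene in which the neuronal Thy1.2 promoter drives human tau with mutations linked to frontotemporal dementia, stood against wild-type (WT) littermates from the same crosses to C57Bl6/J, in both sexes. Libraries carry the names WTM and WTF for WT males and females and TGM and TGF for the transgenic sexes, each with a replicate number. Of 16 libraries, WTM 3 and TGM 4 had 2952 of 3000 barcodes in common, against 3 to 12 for any other pair, and both were left out. That left 3 WTM, 3 TGM, 3 WTF and 5 TGF libraries for the comparisons.

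Ionotropic glutamate receptors are tetrameric channels. AMPA receptors carry fast synaptic current, and the Gria2 subunit, whose RNA is edited, makes them nearly impermeable to calcium. NMDA receptors need Grin1 together with a Grin2 subunit, open only on depolarisation and admit calcium. Metabotropic receptors act through G proteins: Grm5 (mGluR5) raises intracellular calcium, whereas Grm3 and Grm7 lower cyclic AMP, Grm3 being known also from glia and Grm7 from presynaptic terminals.

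In the GRCm38 (mm10) annotation the AMPA receptor genes lie at chr11:57011387-57330244 (Gria1, plus strand), chr3:80681450-80802835 (Gria2, minus), chrX:41400854-41678601 (Gria3, plus) and chr9:4417896-4796234 (Gria4, minus). The NMDA receptor genes lie on the minus strand at chr2:25291181-25319187 (Grin1), chr16:9567898-9995560 (Grin2a) and chr6:135713233-136173511 (Grin2b). Grm3 is at chr5:9485541-9725170 (minus), Grm5 at chr7:87584168-88134907 (plus) and Grm7 at chr6:110645581-111567230 (plus).

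Barcodes with 200 to 7000 detected genes were kept, 28530 in all and 1121 to 2526 per library, at a median depth of 429 to 736.5 UMIs per cell. Cells were clustered without the receptor genes and grouped by marker genes, and levels are given as CPM, a gene's UMIs over all UMIs of that class and library, scaled to 1000000. In the 14 libraries there were 1218 neuron-like cells (27 to 204 per library), 1109 cells like oligodendrocyte precursors (OPC-like, 19 to 131), 4546 astrocyte-like, 4349 oligodendrocyte-like, 6917 microglia-like, 3365 endothelial-like and 866 mural-like cells. Summed over 10 neuronal markers, none of them at 0, the neuron-like cells held 17834 to 36969 CPM per library, the OPC-like cells 864 to 1432 and the astrocyte-like cells 104 to 378. Markers of other classes were also present in the neuron-like cells: the 10 oligodendrocyte markers summed to 740 to 21189 CPM, the highest in WTF 2, which had 27 neuron-like cells, and the 10 microglial markers to 579 to 4172 CPM. The OPC-like cells held 3729 to 14268 CPM of the oligodendrocyte markers and 3239 to 5092 CPM of the astrocyte markers. TGM 3 had 30.1% of its kept cells in clusters that received no name, against 3.67 to 8.21% in the other libraries.

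Each receptor gene had its own distribution over the classes. Grin1, Grin2a and Grin2b were found mainly in neuron-like cells, Gria3 and Grm5 in neuron-like and OPC-like cells, Gria2 in neuron-like, OPC-like and astrocyte-like cells, Gria4 in OPC-like, neuron-like and oligodendrocyte-like cells, and Grm3 in astrocyte-like and oligodendrocyte-like cells. In the edgeR quasi-likelihood test on sums per library and class, 5061 genes were tested, 8 of the 10 receptor genes among them; Grin1 and Grm7 did not pass its filter on low counts. A call needed an adjusted p under 0.05 and a log2 difference of at least 0.5. A gene could pass the filter through the class where it is high, so the counts of calls carry that selection. The percentages of all genes given below count calls in either direction. Between neuron-like and astrocyte-like cells all 8 were called, 7 higher in neuron-like cells, where 61.9% of all genes were called. The other calls out of 8 were 7 for neuron-like over OPC-like cells (46.1% of all genes), 8 for neuron-like against oligodendrocyte-like cells (7 higher, 66.1%), 6 for OPC-like against astrocyte-like cells (3 higher and 3 lower, 44.4%), 6 for OPC-like against oligodendrocyte-like cells (5 higher, 52.6%) and 5 for astrocyte-like against oligodendrocyte-like cells (4 higher, 56.4%). Against microglia-like cells 8 were higher in neuron-like cells (69.4% of all genes called), against endothelial-like cells 8 (67.8%) and against mural-like cells 7 (64.9%). OPC-like cells had 5 calls, all higher, against each of these 3 classes (63.2, 59.6 and 56.1% of all genes), and astrocyte-like cells had 4, 5 and 5 (65.5, 63.3 and 60.7%), also all higher.

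**Figure D1:**
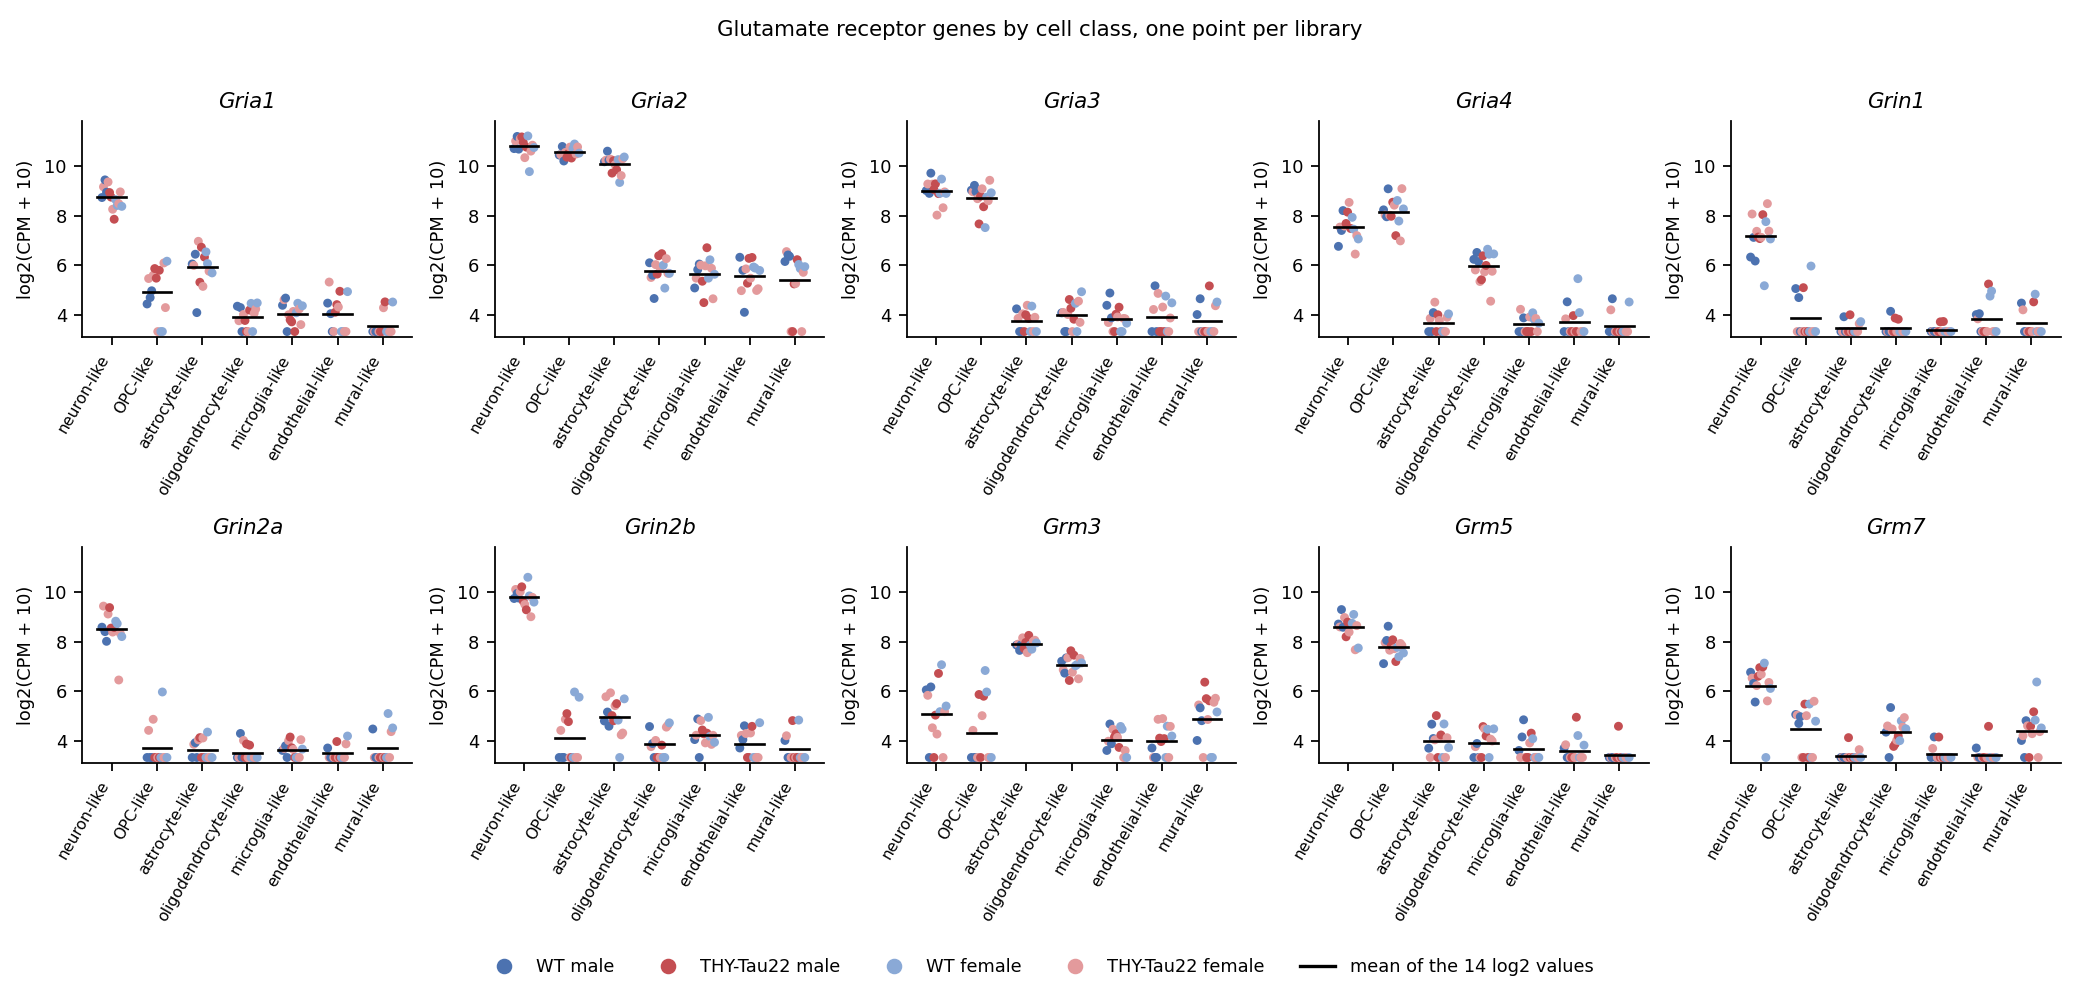
Level of each of the 10 receptor genes (log2 of CPM plus 10, vertical axis) in 7 cell classes (horizontal axis), with 1 point per library, coloured by genotype and sex, and a bar at the mean of the 14 log2 values. Gria2 stands high in 3 classes, the NMDA receptor genes in neuron-like cells, and Grm3 in astrocyte-like and oligodendrocyte-like cells.

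Gria2 was at 1822 ± 427 CPM (SD, n = 14 libraries; lowest 867, median 1779, highest 2369.6) in neuron-like cells, 1511 ± 213 (1171, 1456, 1889.9) in OPC-like cells and 1106 ± 240 (637, 1189, 1545) in astrocyte-like cells. The ranges of these 3 classes overlapped. Neuron-like cells stood above astrocyte-like cells by 0.55 ± 0.10 on the log2 scale (SE; edgeR adjusted p = 1.33e-07) and above OPC-like cells by 0.63 ± 0.11 (edgeR adjusted p = 6.01e-08), the latter falling to 0.26 (edgeR adjusted p = 0.0238) when libraries were scaled by their plain totals. The excess over astrocyte-like cells was under the fold required without TGM 1 (0.47) or TGM 2 (0.50) and with no low-count filter (0.37). OPC-like and astrocyte-like cells differed by -0.08 ± 0.10 (edgeR adjusted p = 0.544), but by 0.50 in favour of OPC-like cells (edgeR adjusted p = 5.56e-06) with plain totals, so their order was not fixed. Plain totals moved the median of all genes by 0.56 in that pair, by -0.37 between neuron-like and OPC-like cells and by 0.19 between neuron-like and astrocyte-like cells.

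The other 4 classes held little Gria2, from 41.5 to 47.9 CPM on average, and none of the 6 pairs among them was called. Depth was matched by thinning cells to 500 UMIs, which left out 311 neuron-like, 423 OPC-like and 1878 astrocyte-like cells below that depth. Of the 907, 686 and 2668 cells left, 53.5% of neuron-like, 49.0% of OPC-like and 37.9% of astrocyte-like cells had a Gria2 UMI, and unthinned, over all cells of each class, the shares were 68.2, 56.7 and 42.6%. In the low classes, with 213 (mural-like) to 3424 (microglia-like) cells left out, the thinned share was 1.46% (endothelial-like) to 2.29% (oligodendrocyte-like). The part of free RNA or doublets in these low shares was not tested. Median depths ran from 503 UMIs per cell in microglia-like to 793 in mural-like cells, with 711.5 in neuron-like cells.

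Gria1 was at 435 ± 133 CPM (222, 417, 686) in neuron-like cells, 57.1 ± 29.0 (7.00, 55.0, 115) in astrocyte-like cells and 27.1 ± 21.6 in OPC-like cells, with 2.52 to 8.45 CPM in the rest. Neuron-like and astrocyte-like libraries did not overlap, and the difference was 2.79 ± 0.16 (log2; edgeR, called). Astrocyte-like cells in turn stood above oligodendrocyte-like cells by 3.11 ± 0.30 and above OPC-like cells (OPC-like minus astrocyte-like -1.49 ± 0.32), both called.

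In glia Gria3 went the other way from Gria1. It was at 522 ± 148 CPM (250, 497, 830.3) in neuron-like cells and 434 ± 139 (173, 454, 678) in OPC-like cells, but at 4.02 to 6.96 CPM in the 5 other classes, astrocyte-like cells being lowest. OPC-like cells exceeded oligodendrocyte-like cells by 5.40 ± 0.24 on the log2 scale (edgeR, called). The excess of neuron-like over OPC-like cells, 0.53 ± 0.14 (edgeR adjusted p = 0.000654), was 0.15 with plain totals (edgeR adjusted p = 0.372) and 0.50 and 0.48 without WTM 4 or TGM 2, under the fold required.

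Gria4 was the only AMPA receptor gene with its highest mean in OPC-like cells, at 298 ± 125 CPM (116, 271, 535) against 188 ± 77.3 (77.4, 172, 361) in neuron-like cells. That difference, -0.42 ± 0.17 for neuron-like minus OPC-like cells (edgeR adjusted p = 0.0346), was under the fold required, and passed it with plain totals at -0.79 and without TGF 3 at -0.53. Oligodendrocyte-like cells kept 56.4 ± 22.5 CPM of Gria4 (13.4, 57.3, 90.1), while astrocyte-like, microglia-like, endothelial-like and mural-like cells had 2.59 to 4.56. The oligodendrocyte-like level was 4.19 ± 0.32 above microglia-like cells and 2.00 ± 0.18 below OPC-like cells on the log2 scale, both called. Over the 6 pairs of oligodendrocyte-like, microglia-like, endothelial-like and mural-like cells, Gria4 was called in 3, Gria1 in 1 and Gria2 and Gria3 in 0. The share of all genes called was 63.1, 56.9 and 56.1% for oligodendrocyte-like cells against the others in that order, 53.5 and 54.9% for microglia-like against endothelial-like and mural-like cells, and 18% for endothelial-like against mural-like cells.

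Because all 4 AMPA receptor genes are counted in the same cells, their makeup can be given as shares of their summed UMIs, which do not depend on the scaling of the libraries, although 3′ capture may differ between the genes. Gria2 made up 94.4 ± 2.50% (SD, n = 14; lowest 90.2, median 94.8, highest 98.8) of the AMPA receptor UMIs in astrocyte-like cells, 66.8 ± 6.38% (52.9, 67.2, 75.0) in OPC-like cells and 61.0 ± 7.16% (42.0, 62.1, 68.4) in neuron-like cells. The share was lower in neuron-like than in astrocyte-like cells in 14 of 14 libraries, by 33.4 ± 7.21 percentage points (SD of the differences; exact sign-flip permutation test, two-sided, p = 0.000122, the smallest it can give, adjusted over 3 pairs 0.000183). OPC-like cells were lower than astrocyte-like cells in 14 of 14 libraries too, the difference of -27.6 ± 8.03 points having the same exact p. Neuron-like cells were lower than OPC-like cells in 12 of 14 libraries, with a difference of -5.80 ± 8.52 points (exact permutation p = 0.00244, adjusted 0.00244).

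The remainder differed in kind. In neuron-like cells Gria3 (17.9%) and Gria1 (14.5%) came next, with Gria4 at 6.53%. In OPC-like cells it was Gria3 (18.9%) and Gria4 (13.0%), with Gria1 at 1.30%. In astrocyte-like cells it was almost all Gria1, at 4.95%, with Gria3 at 0.38% and Gria4 at 0.25%. The shares rest on 50 to 489 AMPA receptor UMIs per library in neuron-like cells, 39 to 310 in OPC-like cells and 93 to 530 in astrocyte-like cells, and the lowest neuronal value, 42.0%, came from the 50 UMIs of WTF 2.

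**Figure D2:**
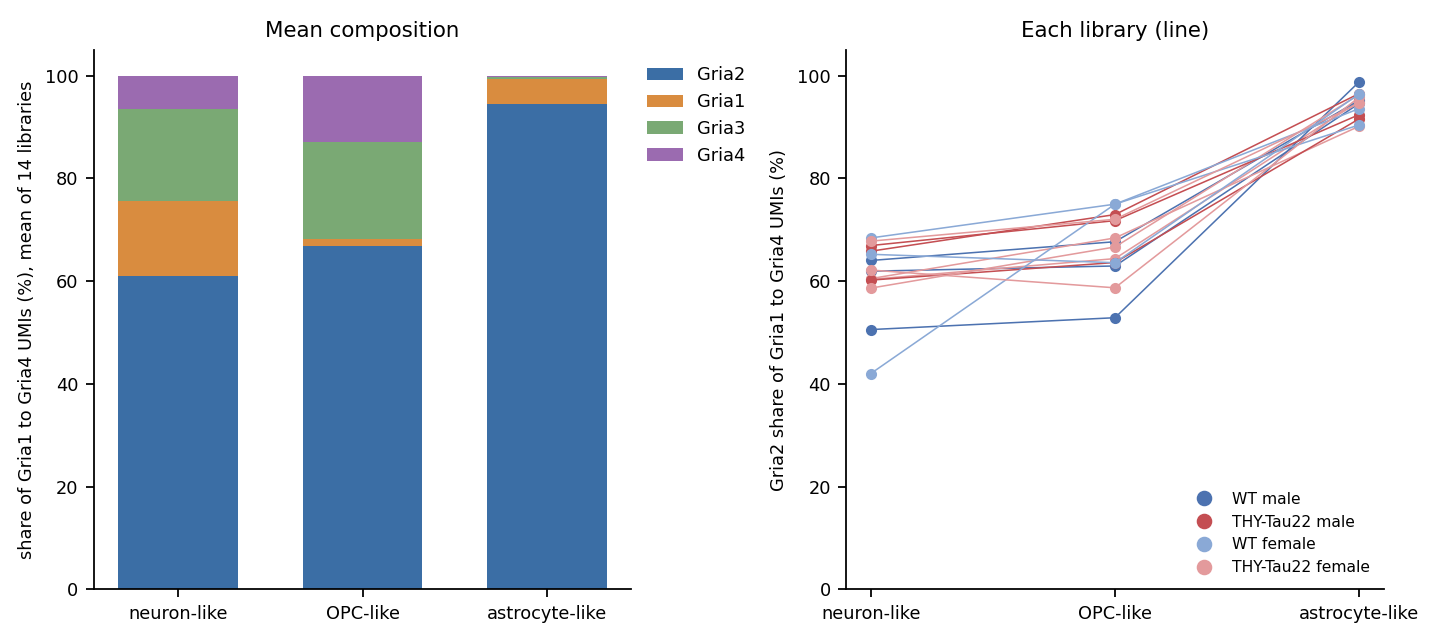
Left, mean share (%) of Gria1, Gria2, Gria3 and Gria4 among their summed UMIs in neuron-like, OPC-like and astrocyte-like cells, as stacked bars over 14 libraries. Right, the Gria2 share (%) of each library, joined by a line across the 3 classes, highest in astrocyte-like cells in each of the 14 libraries.

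Among NMDA receptor genes, Grin2b, the subunit that predominates early in cortical development, was at 904 ± 256 CPM (503, 863, 1536) in neuron-like cells. Grin2a, the subunit that gains weight in the adult, was at 386 ± 158 (77.4, 366, 680.4), and the obligatory Grin1 at 155 ± 86.2 (26.0, 130.0, 348). Grin2a had 1.54 to 5.93 CPM and Grin1 0.46 to 8.27 CPM on average in the 6 other classes, and Grin2a exceeded them in neuron-like cells by 6.45 to 7.30 (log2), called in 6 of 6 pairs. Grin2b was more graded: astrocyte-like cells had 24.3 ± 14.9 CPM, below neuron-like cells by a log2 difference of 4.95 ± 0.16 but above microglia-like cells by 1.44 ± 0.30, both called. OPC-like cells had 12.0 ± 17.6 CPM of Grin2b, a log2 difference of -1.49 ± 0.45 from astrocyte-like cells, a call that was lost with plain totals (-0.94, edgeR adjusted p = 0.0753). Of the 907 neuron-like cells that could be thinned to 500 UMIs, 35.3% had a Grin2b UMI, against 1.24% of 2668 astrocyte-like, 0.44% of 686 OPC-like and 0.40% of 3493 microglia-like cells. The counts of Grin1 should be read with its antisense gene Grin1os in view, which overlaps its exons over 1307 bases; whether the counting used strand is not given in the sources used here.

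The metabotropic receptor genes split between neurons and glia. Grm3 was highest in astrocyte-like cells, at 229 ± 32.4 CPM (178, 226, 294), followed by oligodendrocyte-like cells at 127 ± 33.0 (76.2, 128, 188), neuron-like cells at 36.7 ± 37.1 and mural-like cells at 26.0 ± 20.7. Astrocyte-like cells exceeded oligodendrocyte-like cells by 0.93 ± 0.13, and oligodendrocyte-like cells exceeded neuron-like cells, whose difference from them was -1.90 ± 0.24 (log2; both called). OPC-like cells, at 20.3 ± 31.4 CPM, had UMIs of Grm3 in 6 of 14 libraries. The neuron-like and mural-like levels did not differ past the threshold (0.78 ± 0.39, edgeR adjusted p = 0.0653), although they did without any 1 of WTM 2, TGM 2, TGF 3 and TGF 4 (0.86 to 0.90), whereas microglia-like cells, at 6.86 CPM, were below mural-like cells (-1.53 on the log2 scale, called).

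Grm5 was at 389.6 ± 116 CPM (193, 399, 617) in neuron-like cells and 214 ± 63.3 (128, 213, 383) in OPC-like cells, with 1.00 to 6.87 CPM in the other classes. Neuron-like cells exceeded OPC-like cells by 1.17 ± 0.16 and OPC-like exceeded oligodendrocyte-like cells by 4.67 ± 0.28 (log2; both called). Astrocyte-like cells, at 6.87 CPM, did not differ from oligodendrocyte-like cells past the threshold. Grm7 was at 75.8 ± 35.1 CPM (0, 76.8, 130.2) in neuron-like cells, with UMIs in 13 of 14 libraries, and at 16.5, 15.0 and 11.4 CPM in OPC-like, mural-like and oligodendrocyte-like cells. It had 0.71 to 1.31 CPM in the remaining 3 classes.

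Partner genes from lists of other glutamate receptor genes, auxiliary subunits and postsynaptic proteins were set beside these. Of 16 other receptor genes 3 were tested: Grik2, a kainate receptor subunit, was higher in neuron-like than in astrocyte-like cells by 2.48 ± 0.29, Grin2c, an NMDA receptor subunit, lower (-3.96 ± 0.32), and Grin3a, another NMDA receptor subunit, was lower in neuron-like than in OPC-like cells (-3.03 ± 0.26; log2, edgeR, all called). Of 18 auxiliary subunit genes 5 were tested, and from neuron-like to OPC-like cells the transmembrane AMPA receptor regulatory proteins went opposite ways. Cacng2 (stargazin) was higher in neuron-like cells by 7.56 ± 0.56 and Cacng4 lower (-5.09 ± 0.15), Cacng4 being one of the markers used to name the OPC-like cells. Nptxr and Olfm1 were higher in neuron-like than in OPC-like cells, by 3.84 and 3.18, and Neto1, a kainate receptor partner, did not differ past the threshold (0.34 ± 0.26).

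Of 19 postsynaptic genes 7 were tested, and 7 of 7 were called higher in neuron-like cells than in OPC-like cells and than in astrocyte-like cells, Camk2a (a calcium-dependent kinase) by 6.13 ± 0.28 and Homer1 (the scaffold that binds mGluR5) by 3.00 ± 0.26 over OPC-like cells. A gene could pass the low-count filter through neuron-like cells alone, so this count cannot be read as a result about the list. The shares of all genes called in these pairs are those given above. The median difference from OPC-like cells was 3.18 in the tested auxiliary genes and 0.34 in the other receptor genes tested, beside -0.01 over all genes tested. Those 2 medians are the values of Olfm1 and Grik2. They carry the same selection and cannot be read as results about the lists.

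The 2 genes whose level over the 98 sums of library and class was most like that of each receptor gene were found from Pearson's r of log2(CPM + 10), as a description only, since the sums share libraries and depth. Pcdh7 was among the 2 genes nearest to Gria2 (r = 0.949). Gria3 and Grm5 had the same 2 nearest genes, Brinp1 (0.957 and 0.956) and Srrm3 (0.940 and 0.955). Grin2a was closest to Tmem130 (0.940) and Gm37899 (0.940), and Grin2b to Tmem130 (0.924) and Rbfox3 (0.922), the gene of the nuclear protein NeuN. Gria1 was closest to Camk2n1 (0.895) and Atp2b2 (0.878), and Gria4 to Creg2 (0.937) and Anks1b (0.927). Ano3 was among the 2 genes nearest to Grin1 (0.882). The weakest likenesses were those of Grm3, with Daam2 (0.782) and Clmn (0.776), and Grm7, with Map1b (0.785) and Sh3gl2 (0.760).

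Within the neuron-like cells, those with a UMI of Gad1 or Gad2, the enzymes that make GABA, were compared with the rest in the 9 libraries that had at least 10 of each, 179 cells with and 785 without. Gria1 was at 630.3 ± 224 CPM (SD, n = 9) in cells with Gad and 439 ± 140.0 in cells without, higher in 7 of 9 libraries, with a log2 difference of 0.58 ± 0.22 (edgeR adjusted p = 0.0478). It was the 1 gene called of the 5 receptor genes tested, where 24.7% of 296 genes were called. Grm5 had 508 against 352 CPM, higher in 6 of 9 libraries (0.53 ± 0.22, edgeR adjusted p = 0.0765), Grin2b 670.3 against 867, higher in 2 of 9 (-0.41 ± 0.20, edgeR adjusted p = 0.136), Gria3 398 against 494 (-0.37 ± 0.24, edgeR adjusted p = 0.265) and Gria2 1919.7 against 1813 (0.06 ± 0.16, edgeR adjusted p = 0.835). The Gria1 call did not hold without doublets (0.53, edgeR adjusted p = 0.0961) or without any 1 of WTM 1, WTM 2, WTF 3, TGF 1, TGF 3 and TGF 5, where its difference lay between 0.47 and 0.66. With all genes entered, 4 receptor genes were called and Gria1 was at -0.12. The share of all genes called in that fit was not counted, so the 4 cannot be read as a result about the receptor genes.

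**Figure D3:**
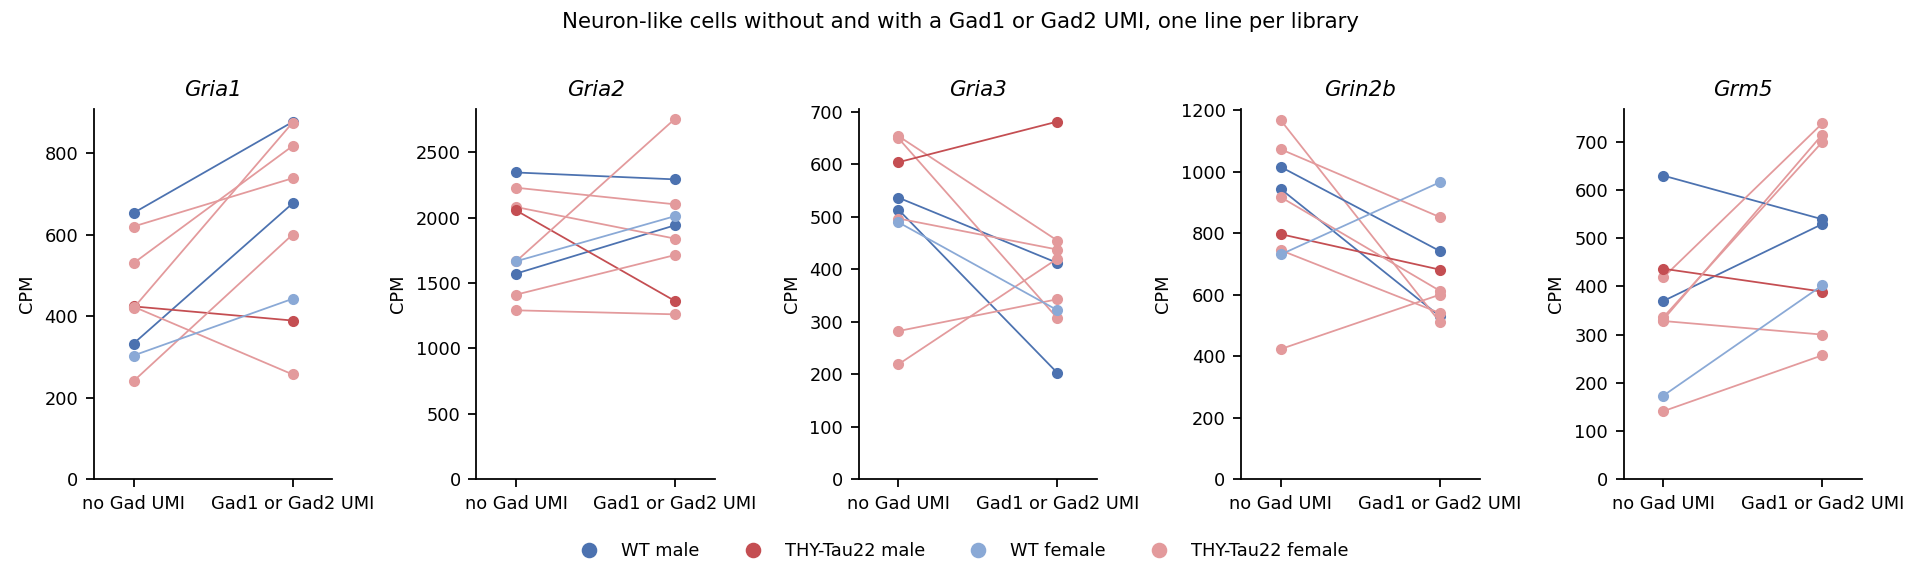
CPM of the 5 tested receptor genes in neuron-like cells without (left) and with (right) a Gad1 or Gad2 UMI, 1 line per library, 9 libraries. The line for Gria1 rises in 7 of 9 libraries and that for Grin2b in 2 of 9.

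At the finer Leiden resolution of 1, a cluster holding 103 of the neuron-like cells had Penk, Pde10a, Rgs9 and Tac1 among its leading genes, which are known from projection neurons of the striatum, although the tissue is labelled as cortex; whether striatum was in the dissected tissue was not tested. Pooled over the 14 libraries, these cells had 793 CPM of Gria1 (95% exact Poisson interval 626 to 992, counting error only) against 405 (369 to 443) in the other neuron-like cells. Grm5 was also at 793 CPM (626 to 992) against 346 (313 to 382), and Gria2 at 2215 (1929 to 2532) against 1791 (1715 to 1870). Gria4 was lower, at 51.5 CPM (16.7 to 120, from 5 UMIs) against 194 (169 to 221). In the 5 libraries with at least 10 cells of this cluster, Gria4 ran from 0 to 176 CPM. These pooled values carry no test between libraries. Without this cluster 2 receptor genes could be tested between cells with and without Gad, and 0 were called by edgeR.

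Subsets of glia had differing pooled levels as well. The 99 astrocyte-like cells with a UMI of Gfap, the intermediate filament of reactive astrocytes, had 488 CPM of Gria2 (362 to 643) against 1154 (1115 to 1194) in the cells without, lower in 13 of 14 libraries. Grm3 was at 87.8 CPM (40.2 to 167) against 235 (218 to 253), lower in 13 of 14 libraries, although the cells with Gfap numbered 2 to 15 per library and only 2 libraries had a Grm3 UMI in them. The value rests on TGM 3, which held 8 of the 9 Grm3 UMIs. Without that library the cells with Gfap had 12.2 CPM (0.31 to 68.1, from 1 UMI) against 231 (213 to 250.1). Gria1 was at 137 (74.7 to 229) against 51.9 (43.9 to 60.8) pooled, but was higher in 7 libraries and lower in 7. Among OPC-like cells, the 206 with Gpr17, a marker of precursors committed to differentiate, had 1813 CPM of Gria2 (1630.4 to 2010.2) against 1408 (1315 to 1506) and 353 CPM of Gria3 (275 to 445) against 518 (462 to 579). For Gria4 (332 against 318) and Grm5 (237 against 207) the counting intervals overlapped. The pooled values of the glial subsets carry no test between libraries, and their intervals leave out the spread between libraries. By library, where a subset had at least 10 cells, Gria2 ran from 1184 to 3024 CPM with Gpr17 (9 libraries). Without Gpr17 it ran from 1201 to 2219 CPM (13 libraries).

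The study's main question was how THY-Tau22 changes expression in each sex, and no receptor gene was called between genotypes. Over the sum of all kept cells and 6 classes, 120 member comparisons were made by edgeR (males, females, their mean and their difference), 8 had an unadjusted p under 0.05, and 0 were called, the lowest adjusted p being 0.242. DESeq2 called 0 as well, leaving the adjusted p of some low-count members unset. Among all genes edgeR called 0% in the summed cells (1792 of 11643 had an unadjusted p under 0.05 in males), 0% in neuron-like, astrocyte-like and endothelial-like cells, 0.0809% in OPC-like cells in males and for the mean of both sexes, 0.1%, 0.0251% and 0.501% in oligodendrocyte-like cells in males, in females and for the difference, and 0.723% in males and 0.0196% for the mean in microglia-like cells. Per-sex log2 differences of the receptor genes ran from -1.09 to 0.86. No gene of the 3 partner lists was called in any genotype comparison. These p-values measure the spread between libraries, which may be partly technical.

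**Figure D4:**
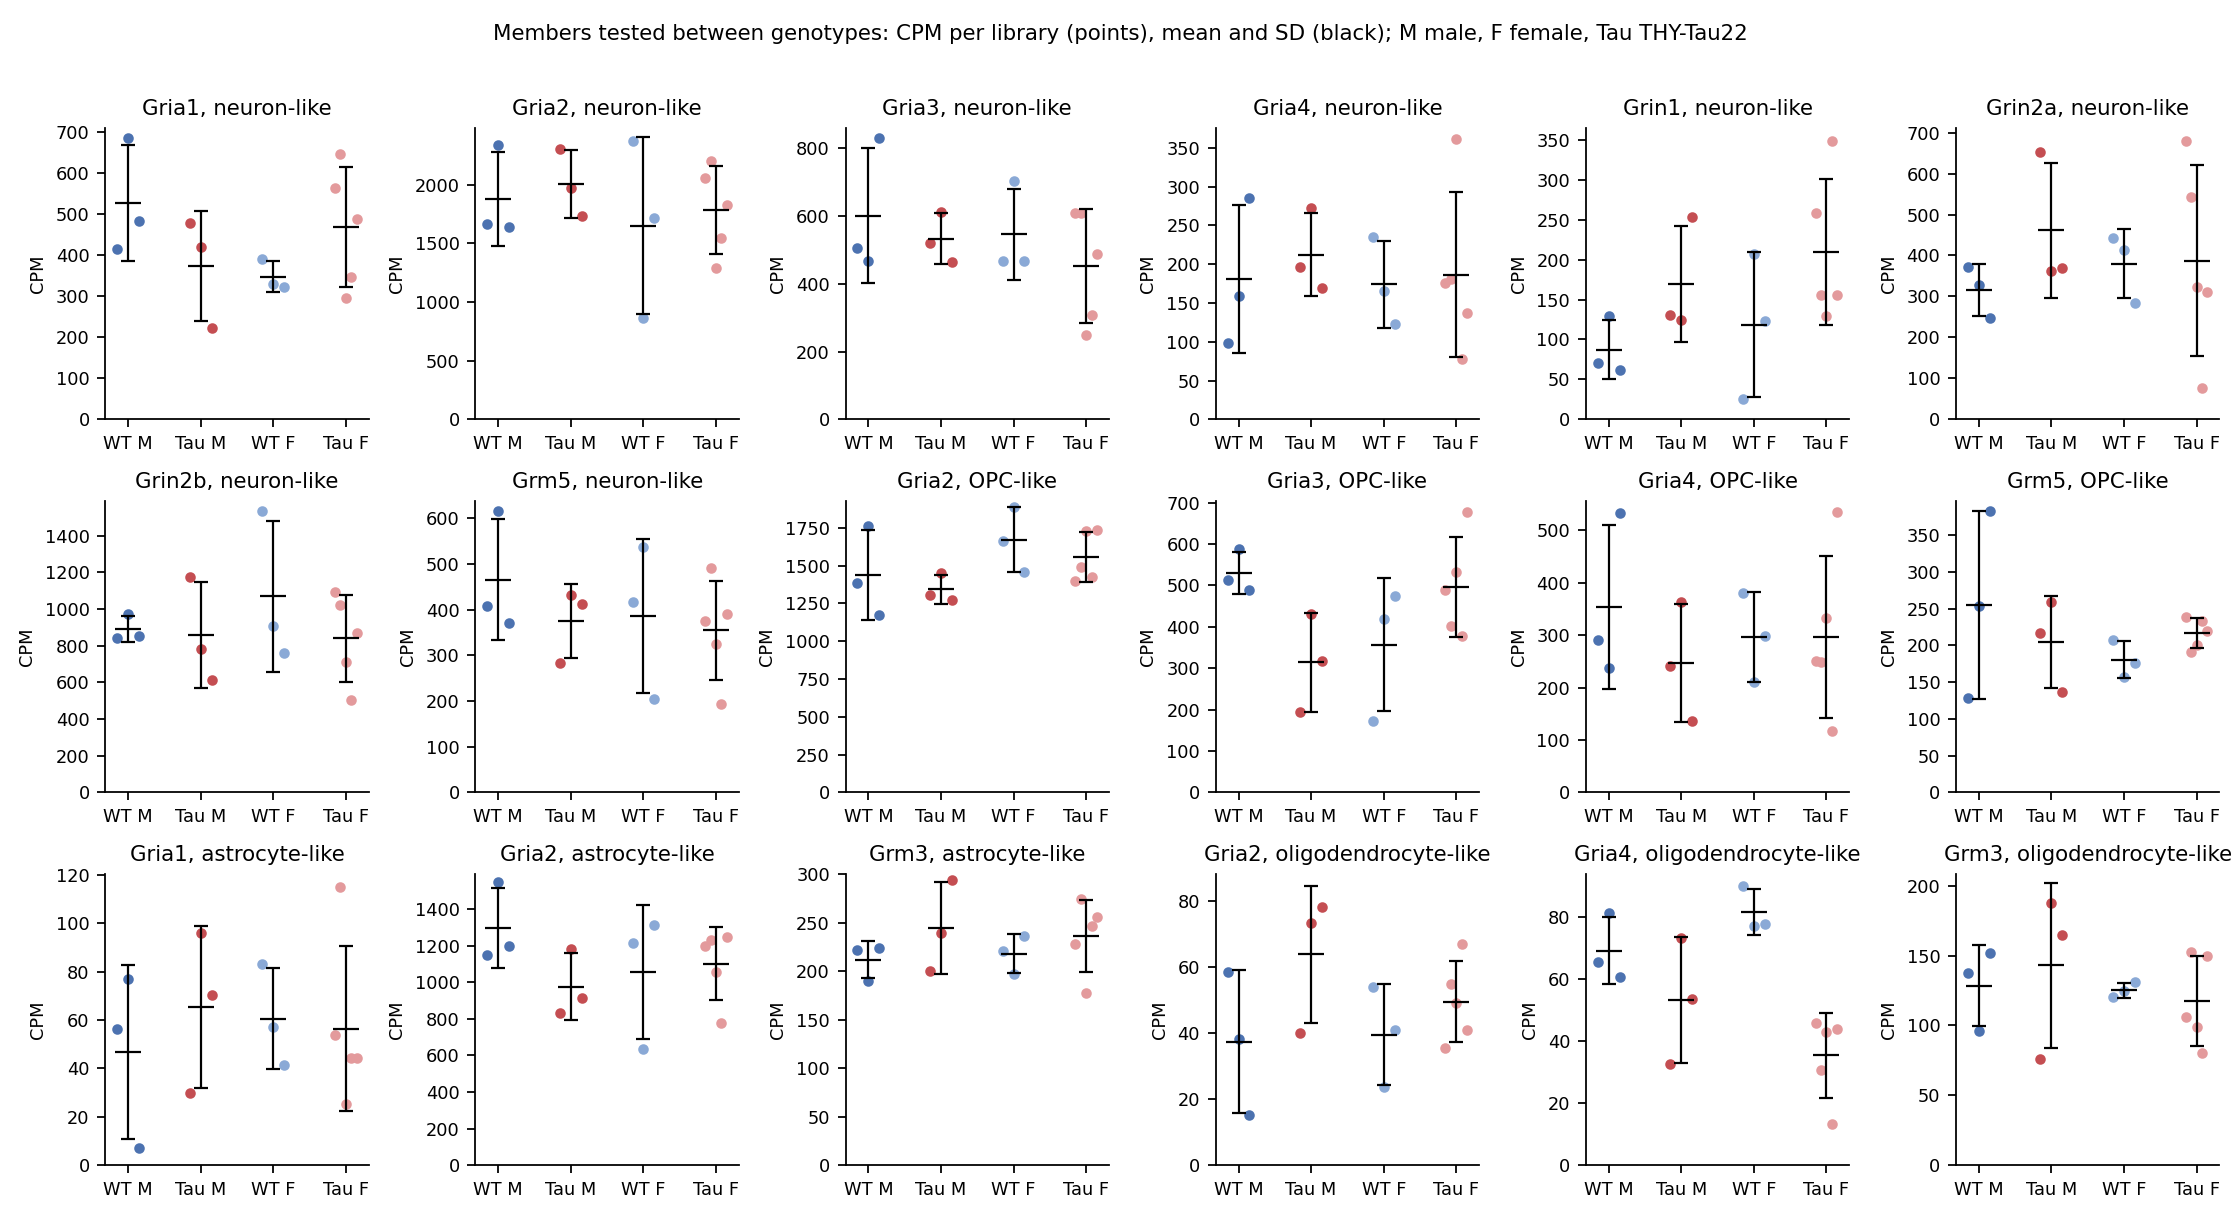
CPM per library (points) with mean and SD (black) for receptor genes in named cell classes, in WT and THY-Tau22 males (M) and females (F). In oligodendrocyte-like cells the 5 THY-Tau22 females have 13.4 to 46.0 CPM of Gria4 and the 3 WT females 77.1 to 90.1.

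Gria4 in oligodendrocyte-like cells had the lowest unadjusted p. The WT females were at 90.1, 77.1 and 77.8 CPM and the THY-Tau22 females at 46.0, 30.6, 43.1, 13.4 and 44.0, so the groups did not overlap. WT males were at 65.4, 81.4 and 60.9 CPM and THY-Tau22 males at 32.7, 73.4 and 53.6, which overlapped. The log2 difference was -1.09 ± 0.38 in females (edgeR adjusted p = 0.998) and -0.85 ± 0.28 for both sexes (edgeR adjusted p = 0.888), on 2 to 15 UMIs per THY-Tau22 female library and 13 to 19 per WT female library. In the libraries whose titles carry the MB21 mark the female difference was -1.12 (edgeR adjusted p = 0.404). The interaction with sex was 0.47 ± 0.56 (edgeR adjusted p = 0.70). Groups without overlap are given as a description, since the share of all genes that separate so was not counted. For most receptor genes the genotypes overlapped in each sex. In neuron-like and astrocyte-like cells they overlapped for all 10 receptor genes in both sexes. In THY-Tau22 males, Gria3 in OPC-like cells and Grin2b over all kept cells were also lower without overlap. Gria1 in OPC-like cells, on 1 to 2 UMIs per library, and Grm3 in endothelial-like and mural-like cells were higher without overlap. In endothelial-like cells Grm3 had 0 to 1 UMIs per WT male library and 1 per THY-Tau22 male library. In mural-like cells it had 1 to 2 UMIs per WT male library and 3 to 4 per THY-Tau22 male library.

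Gria3 in OPC-like cells was at 512, 587 and 489.9 CPM in WT males and 193, 432 and 318 in THY-Tau22 males, without overlap. The females went the other way on average, with 173, 420.0 and 475 CPM in WT and 489, 401, 533, 378 and 678 in THY-Tau22. Male libraries held 23 to 44 Gria3 UMIs in WT and 7 to 25 in THY-Tau22. Female libraries held 5 to 54 in WT and 13 to 71 in THY-Tau22. The log2 difference was -0.78 ± 0.37 in males (edgeR adjusted p = 0.474), and the male effect minus the female effect was -1.17 ± 0.49 (edgeR adjusted p = 0.655).

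Gria2 in astrocyte-like cells was at 1146, 1545 and 1197 CPM in WT males and 832, 1181 and 914 in THY-Tau22 males. The groups overlapped by 1 library, with a difference of -0.67 ± 0.30 (edgeR adjusted p = 0.242). WT females were at 1217, 637 and 1311 CPM and THY-Tau22 females at 1198, 1232, 1055, 776 and 1248. Without WTF 3 the male minus female difference of Gria2, -0.75 with all 14 libraries (edgeR adjusted p = 0.320), was -1.16 and passed the threshold (edgeR adjusted p = 0.0284). The share of all genes called in that fit was not counted, so the call cannot be read as particular to Gria2.

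In neuron-like cells, where the transgene is expressed, Gria2 was at 1660.0, 2337 and 1636 CPM in WT males and 2305, 1974 and 1730.4 in THY-Tau22 males, with a log2 difference of -0.02, and its difference in females was 0.01. Gria1 was at 528 ± 141 CPM in WT males (n = 3) and 373 ± 135 in THY-Tau22 males (n = 3), with a log2 difference of -0.62 that fell to -0.30 without TGM 3. Grin1 was the 1 neuronal receptor gene among the 8 comparisons with an unadjusted p under 0.05. The log2 difference for both sexes was 0.72 ± 0.34 (edgeR adjusted p = 0.951). Its values were 70.3, 129 and 62.0 CPM in WT males, 130.5, 125 and 253 in THY-Tau22 males, 26.0, 207 and 123 in WT females, and 258, 155, 130, 348 and 156 in THY-Tau22 females. The other neuronal log2 differences in males and females were -0.20 and -0.34 for Grin2b, 0.35 and 0.09 for Grin2a, -0.39 and 0.05 for Grm5, -0.28 and -0.27 for Gria3 and 0.19 and 0.17 for Gria4, with SEs of 0.31 to 0.45. Oligodendrocyte markers in these cells ranged from 2119 to 7850 CPM in WT males, 3630 to 14945 in THY-Tau22 males, 2324 to 21189 in WT females and 740 to 7157 in THY-Tau22 females; their part in the neuronal values was not tested.

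Summed over all kept cells, 8 of the 10 receptor genes had log2 differences below 0 in males (median -0.55), beside a median of 0.01 over all genes, and 3 of 10 in females (median 0.10). Gria1 (-0.73), Gria2 (-0.58), Gria3 (-0.81) and Grm5 (-0.81 ± 0.36, edgeR adjusted p = 0.303) lay lower in males. Grm5 was at 34.9, 75.3 and 61.5 CPM in WT males, 23.9, 46.1 and 38.4 in THY-Tau22 males, 34.4, 20.7 and 37.1 in WT females and 36.6, 60.0, 34.9, 18.5 and 45.6 in THY-Tau22 females. Neuron-like cells were 5.32 ± 1.12% of kept cells in WT males and 4.21 ± 1.19% in THY-Tau22 males (exact two-sided permutation p = 0.3, where 3 against 3 cannot go below 0.1). In females they were 4.77 ± 3.35% and 4.76 ± 1.52% (exact permutation p = 1). In such sums, fewer cells of a type and less RNA per cell cannot be told apart.

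The makeup of the neuron-like cells and the AMPA receptor UMIs were also compared between genotypes, and no difference passed a threshold. In males, 3 libraries against 3 cannot give an exact permutation p under 0.05, so no male comparison could have passed. Cells with Gad1 or Gad2 were 17.0 ± 6.67% of neuron-like cells in WT males against 12.8 ± 1.82% in THY-Tau22 males (exact permutation p = 0.4), and 12.7 ± 3.50% against 22.9 ± 8.65% in females (exact permutation p = 0.107). The Gria2 share of AMPA receptor UMIs in neuron-like cells was 58.8 ± 7.24% in WT males and 64.3 ± 3.61% in THY-Tau22 males (exact permutation p = 0.3). In females it was 58.6 ± 14.4% and 61.9 ± 3.53% (exact permutation p = 0.714), the sign of that difference turning without WTF 2. In astrocyte-like cells the share was 96.2 against 93.5% in males (exact permutation p = 0.3) and 93.5 against 94.4% in females (exact permutation p = 0.643). In OPC-like cells it was 61.2 against 69.5% in males (exact permutation p = 0.2) and 71.2 against 66.1% in females (exact permutation p = 0.321).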

How the data were processed

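The deposited tables hold raw UMI counts per gene and barcode, 1 table of 3000 barcodes per library, made by the authors from 3′ Drop-seq reads. The submitters' processing notes name build mm10; annotation, pipeline version and strand setting are not given in the sources used here. Libraries held 1041675 to 2237505 UMIs. Groups came from the titles, and replicate numbers only follow accession order. The titles of WTM 1 and TGF 1 hold the same number, of unstated meaning. The labels do not say how animals map to libraries beyond 1 title each.

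Barcodes with 200 to 7000 genes were kept, with no limit on mitochondrial UMIs. Cells were clustered with scanpy 1.11.5 (2500 variable genes, 19 components, 20 neighbours, Leiden resolution 0.5, leidenalg 0.10.2) after leaving out 62 genes of the receptor, auxiliary and postsynaptic lists, and clusters were named from marker lists. Scrublet marked 1646 barcodes (5.77%) as doublets, which were kept. In the 14 libraries the rate was 10.6% in neuron-like, 9.74% in OPC-like, 1.06% in astrocyte-like and 0.51% in oligodendrocyte-like cells. Counts were summed per library and class with at least 10 cells and tested in R 4.3.3 with edgeR 4.0.16 (quasi-likelihood, TMM, filterByExpr, Benjamini-Hochberg over all genes tested), by group for genotype and by library and class for the other comparisons. Calls needed an adjusted p under 0.05 and a log2 difference of at least 0.5. Shares were tested with exact two-sided permutation tests (scipy 1.17.1). Intervals are 95% exact Poisson and cover counting error only. The code was tested on simulated data.

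The genes named are the 10 receptor genes, for each the 2 genes most correlated with it over library and class sums (some of them not reported here), and partner genes of the lists where called between genotypes. Partner genes named between classes, and the subsets with Gfap, Gpr17 or Penk, were chosen after their values were seen. The receptor genes and the lists were chosen with earlier results of these data known. Alternatives were RLE size factors, DESeq2 1.42.0, no low-count filter, at most 5% mitochondrial UMIs, doublets removed, Leiden resolution 1, a minimum of 500 genes, the shared library kept, the MB21 titles, each library left out and, added after seeing the data, plain library totals, the neuron-like cells without the Penk-led cluster, and the pooled values of the Gfap, Gpr17 and Penk subsets without each library.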

Additional observations from a re-analysis of the deposited data

Results flagged for a closer look

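A library far from its others was looked for in groups of 4 to 10 libraries, which only the 5 THY-Tau22 females formed. The 3 WT male, 3 THY-Tau22 male and 3 WT female libraries were too few to be checked. Of 34 such checks 1 was marked, where chance would mark about 1 in 20. The Gria2 share of AMPA receptor UMIs in astrocyte-like cells was 90.2% in TGF 2, and 94.6 to 96.4% in the other 4 THY-Tau22 females.

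The THY-Tau22 effect differed between the sexes before adjustment in edgeR for Grm5 summed over all cells, by -1.14 ± 0.50 on the log2 scale, and for Gria3 in OPC-like cells, by -1.17 ± 0.49. Both missed the threshold after adjustment (edgeR adjusted p = 0.348 and 0.655).

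The 17422 barcodes with fewer than 200 genes, which entered no comparison, held UMIs of all 10 receptor genes above the 0.806 CPM that 3 UMIs amount to in them. Pooled levels were 566 CPM for Gria2, 83.3 for Grm3, 62.6 for Grin2b, 61.6 for Gria1, 47.6 for Gria3, 33.6 for Gria4, 33.1 for Grm5, 21.0 for Grin1, 19.9 for Grin2a and 14.0 for Grm7. Fibroblast-like cells, of which there were 151, held 104 CPM of Gria4 (28 UMIs in 6 libraries, 95% exact Poisson interval 68.8 to 150), above the 11.1 CPM of 3 UMIs, with 0 UMIs of Gria3.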

How the results depend on the processing

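Of 2187 values for 96 results under the alternatives, 2131 were labelled as unchanged. An effect was so labelled if it kept its direction and its side of the threshold. A count of called genes was so labelled if it stayed equal or close. Many of the 2131 are counts of genotype calls that stayed at 0. Of 868 genotype fits, DESeq2 and all 16 libraries included, 2 called a receptor gene: without WTF 3, 1 receptor gene was called for the sex difference in all cells (Gria3) and 1 in astrocyte-like cells (Gria2), so leave-outs gave 0 to 1. The share of all genes called without WTF 3 was not counted. Many of the 868 fits could call few or none. In the main fits no receptor gene passed the low-count filter in mural-like cells. Only 1 passed it in microglia-like cells and 1 in endothelial-like cells. Between cells with and without Gad, the 1 receptor gene called became 4 with no low-count filter, 2 with plain totals, and 0 with doublets removed, Leiden resolution 1 or no Penk-led cluster, and leave-outs gave 0 to 1. The share of all genes called was not counted in these alternatives. The signs there turned for Gria1 (-0.12) and Grm5 (-0.16) with no filter, and for Gria2 with no filter (-0.63), with doublets removed (-0.0123), without the Penk-led cluster (-0.0859) and over leave-outs (-0.0659 without TGF 5, to 0.108). Between OPC-like and astrocyte-like cells Gria2 was at 0.50 with plain totals. The neuron-like share in females, -0.00274 points, was 0.242 at 5% mitochondrial UMIs, 0.0828 without doublets and -1.18 to 1.91 over leave-outs. Leave-outs of the female differences ran from -4.94 to 8.27 points for the Gria2 share in neuron-like cells, -0.633 to 2.38 in astrocyte-like cells and -8.04 to 3.84 for the Penk-led cluster, the sign turning without WTF 2. The cause of these changes was not tested. No paired analysis was possible because replicate numbers only follow accession order, which concerns the genotype comparisons, while classes and cells with or without Gad were compared within libraries. With 1 to 24 Grin1 UMIs per library in neuron-like cells, depth limits the smaller genes.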

Other observations

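Macrophage-like cells (245) had 0 UMIs of Gria1, Gria3, Grin1, Grin2a, Grin2b, Grm5 and Grm7, which allows up to 17.5 CPM (95% exact Poisson), and 33.2 CPM of Gria2 (13.3 to 68.4). Ependymal-like cells (128) had 24.6 CPM of Gria2 (7.98 to 57.3). The 1684 cells without a class name, of which Scrublet marked 53.1% as doublets, had 383 CPM of Gria2 (349 to 419) and 77.9 of Grm3 (63.2 to 95.0), and 419 of them came from TGM 3.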
